A study of Mus musculus with 6 samples.

Results

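The genes for the proteins of the cytoplasmic ribosome were examined in ribosome-bound mRNA of the adult mouse dentate gyrus. They were taken by symbol, as protein-coding genes named Rpl or Rps with a digit, Rplp0, Rplp1, Rplp2 or Rpsa, without pseudogenes and without the Rps6 kinases. A gene also had to exceed 1 CPM, the unit of read counts scaled to the size of the library, in at least 1 of the 6 samples. Of 85 genes with such symbols, 82 passed, among 37620 genes counted and 15056 that passed the same filter. The 3 that did not were Rpl3l, Rpl10l and Rpl39l. The 82 hold 42 proteins of the large subunit, 31 of the small subunit, the 3 stalk proteins and 5 paralogs, which are Rpl22l1, Rpl7l1, Rpl36al, Rps27l and Rps4y2. The remaining gene, Rps19bp1, was taken in by its symbol but encodes a binding partner of Rps19 and not a ribosomal protein. Rpl41 had no counts under that name and was not analysed here, and Rps3a1 was listed as Rps3a.

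All mice carried Gli1CreERT2 and 1 RiboTag allele, Rpl22HA f/+, and they differed in Klf9, which was Klf9 +/+ in 3 samples and Klf9 f/f in 3. Tamoxifen was given to mice of 2 to 3 months as 3 injections of 250 mg/kg every 12 hr, and each sample pooled 6 dentate gyri from 3 mice 4 days after the last injection. Tamoxifen lets Cre add a haemagglutinin tag to the ribosomal protein Rpl22 and, in Klf9 f/f mice, delete the first exon of Klf9. Gli1CreERT2 acts in radial glia-like stem cells (RGLs) and also in astrocytes. By the study's account the profile largely reflects these cells and the first progeny of RGLs. Markers of other cell types were also present in every sample, and Cre need not recombine the 2 loci in the same cells. The library names fall into a series 22, with replicates 1 and 2 of both genotypes, and a series 32, with replicate 3 of both. What separated the series (day, operator or sequencing run) is not given in the sources used here.

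Each ribosome carries a single copy of nearly every one of these proteins, and the stalk is the exception, with Rplp0 holding pairs of Rplp1 and Rplp2 at the site where translation factors land. Their mRNAs are short, abundant and mostly begin with a C followed by a run of pyrimidines, the terminal oligopyrimidine (TOP) motif, through which mTOR signalling adjusts their translation together. The rate of ribosome production is tied to growth, and quiescent neural stem cells are known for low protein synthesis. RiboTag captures mRNAs on ribosomes that hold tagged Rpl22, so Rpl22 is a subject of these measurements and also their handle.

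The TOP motif was looked for as a sequence feature that the choice of genes had not used. RefSeq promoters (GRCm38.p6) were matched by symbol for 61 of the 82 genes, with 21 not matched. A C followed by at least 4 bases that are each C or T, on the gene's own strand, stood exactly at an annotated start in 13 of 61 genes, or 21.3% (95% Wilson interval 12.9 to 33.1%). Among all 27025 genes of the table it stood there in 813, or 3.01%. When the C could lie within 5 bases of the start on either side, 29 of 61 genes held the run, or 47.5%, beside 21.2% of all genes. The sequences below show 30 bases, the last 10 before the annotated start and the first 20 from it, for genes that the results turn on. Capitals mark the run counted from such a C at the start or, failing that, from the nearest such C within 5 bases. Lower-case C or T letters directly before the capitals belong to the same stretch of pyrimidines.

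Rps6, chr4:86857348-86857377, minus strand: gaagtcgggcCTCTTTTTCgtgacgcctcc
Rplp2, chr7:141447641-141447670, plus strand: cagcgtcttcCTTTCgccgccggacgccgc
Rps27, chr3:90213629-90213658, minus strand: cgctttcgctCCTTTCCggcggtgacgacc
Rps24, chr14:24490668-24490697, plus strand: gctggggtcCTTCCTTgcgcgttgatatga
Rpl22l1, chr3:28805498-28805527, plus strand: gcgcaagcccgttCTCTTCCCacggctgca
Rpl31, chr1:39367841-39367870, plus strand: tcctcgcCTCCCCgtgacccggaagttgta
Rpl22, chr4:152325716-152325745, plus strand: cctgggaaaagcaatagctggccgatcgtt
Rpl7l1, chr17:46782637-46782666, minus strand: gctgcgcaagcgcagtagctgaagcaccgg

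In Rps6, Rplp2 and Rps27 the capitals began at the annotated start itself, with C or T letters also directly before it. In Rps24, Rpl22l1 and Rpl31 they began 1 base before, 3 bases after and 3 bases before the start, again with C or T letters directly before them. Rpl22 and Rpl7l1 held no such run within 5 bases, and neither did the second annotated start of Rpl22. An annotated start can differ from the base where transcription begins, so the absence of these letters says nothing of how an mRNA is translated.

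As a check of the labels, Klf9 was measured first. It stood at 201, 204 and 139 CPM in the Klf9 +/+ samples and at 114, 121 and 120 CPM in the Klf9 f/f samples, so every Klf9 f/f value lay below every Klf9 +/+ value. Its log2 fold change was -0.59 ± 0.15 (SE) with an unadjusted p of 0.00319 and an adjusted p of 0.844 (edgeR quasi-likelihood test, with the library series as a term). Total counts on genes were 52188635 to 66343759 in series 22 and 21594714 to 27594529 in series 32. Reads that aligned to several places and were not counted made up 7.63 to 8.95% of the reads listed in series 22 and 13.0 to 13.6% in series 32. The 2 series also differed in markers of another tissue: the 15 choroid plexus markers summed to 116 to 1015 CPM in series 22 and 796 to 4220 CPM in series 32. Of these, all 15 were called higher in series 32 at 1.2-fold and an adjusted p under 0.05, against 12.9% of all genes, and none was at 0 counts in any sample.

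The ribosomal protein genes were abundantly and unevenly represented. They took 1.45, 1.198 and 0.749% of all counts in Klf9 +/+ replicates 1, 2 and 3, and 1.11, 1.30 and 0.751% in Klf9 f/f replicates 1, 2 and 3. The share in both samples of series 32 was thus below that in all 4 samples of series 22, and the genotypes overlapped. Because these are bulk samples, fewer cells of a type and less RNA per cell cannot be told apart.

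Levels were compared between genes as CPM per kb of annotated exonic length, averaged over the 6 samples. On this scale the median was 79.0 and the lowest 7.16, and the gene at the 90th percentile stood 9.86 times above that at the 10th. The order of the genes was nearly the same from sample to sample, with Spearman coefficients of 0.955 to 0.995 over the 82 genes between any pair of samples. The proteins of 1 particle therefore did not come with equal numbers of counted reads per length.

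Among the highest levels were those of Rpl4, Rpl32 and Rpl8, with means of 429, 340 and 305 CPM per kb. Rpl4, which lines the exit tunnel of the large subunit, stood at 498, 495 and 298 CPM per kb in the Klf9 +/+ samples and at 451, 507 and 323 in the Klf9 f/f samples. Rpl32, also of the large subunit, stood at 482, 372 and 203 and at 350, 423 and 211 CPM per kb in the same order. The ranges of Rpl4 and Rpl32 overlapped across the samples, but Rpl4 lay above Rpl32 in every sample. The 4 lowest were Rps20, Rpl27a, Rps15a and Rpl23a, with means of 15.5, 11.8, 11.3 and 7.16 CPM per kb. The ranges of Rps20, Rpl27a and Rps15a, proteins of the small, large and small subunits, also overlapped one another. Within each sample Rps20 lay above Rpl27a and Rps15a, whose own order changed between samples.

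**Figure D1:**
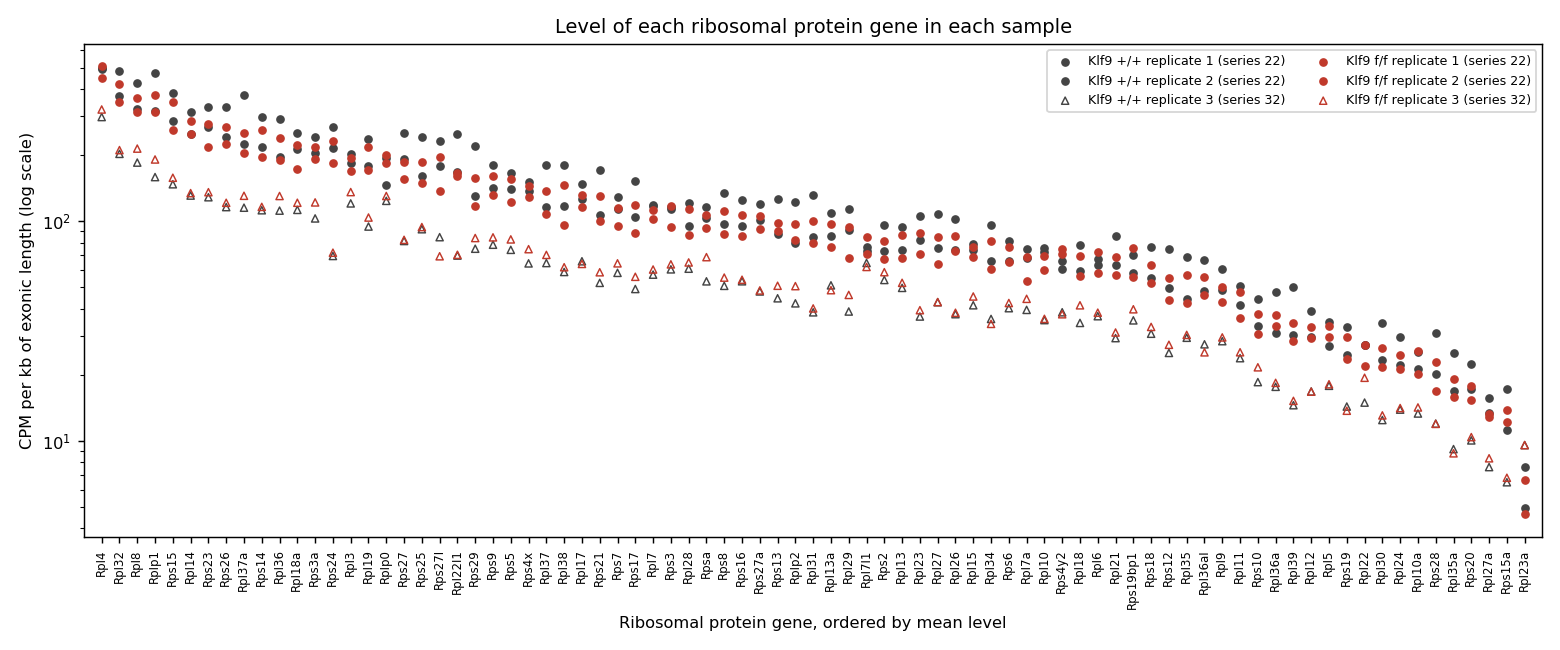
Level of 81 of the 82 genes in each sample, in CPM per kb of exonic length on a log axis, with genes ordered by their mean; filled circles are series 22, open triangles series 32, grey Klf9 +/+ and red Klf9 f/f. The triangles lie below the circles for every gene shown except Rpl23a, at the right end, where they lie above.

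Uncounted reads and the choice of length both enter these levels, and their part in the unevenness was not tested. Many of these genes have processed pseudogenes in the genome, and reads that fit more than 1 place were left out of the counts. Of all 50-base stretches in a gene's longest transcript, a median of 40.9% occurred elsewhere in the mm9 genome, from 0% in 3 genes to 99.7% in Rps27. Above 50% were 29 genes, and above 90% were 6. Counting only the stretches found once in the genome kept the order of the genes in part, with a Spearman coefficient of 0.811 against the order by exonic length. Using the longest transcript as the length gave a coefficient of 0.923. Rpl23a, whose protein sits at the mouth of the exit tunnel, had the lowest level by exonic length and by longest transcript. It lies on chr11:77994434-77997086 (mm9, minus strand), 82.9% of its stretches occurred elsewhere and 62.3% of its exonic bases were shared with Tlcd1 and Snord42b, so reads there were open to being dropped as ambiguous.

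The stalk proteins and 3 genes known for other roles were also compared with the median of 79.0 CPM per kb. The stalk proteins Rplp1, Rplp0 and Rplp2 had means of 305, 163 and 79.1 CPM per kb. Rplp1 stood at 475, 318 and 159 CPM per kb in the Klf9 +/+ samples and at 314, 374 and 191 in the Klf9 f/f samples. Rplp2 stood at 122, 79.8 and 42.3 and at 82.1, 97.6 and 50.6 CPM per kb, below Rplp1 in every sample although both enter the stalk in the same number. Rpsa, which also serves as a laminin receptor, averaged 90.3 CPM per kb. Rps27a, made as a fusion with ubiquitin, averaged 85.8 CPM per kb. Rps6 is a substrate of the S6 kinases, and mTOR activity is usually read from its phosphorylated protein, not from its mRNA. It averaged 61.9 CPM per kb, below that median.

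Paralog pairs were compared as the log2 ratio of the paralog to its partner, both in CPM per kb of exonic length, in each sample. The paralogs can replace their partners in the ribosome or act outside it, and Rpl22l1 is kept low by Rpl22 in several tissues. Rpl22l1 (chr3:28704358-28706274, plus strand, mm9) stood at 250, 168 and 69.8 CPM per kb in the Klf9 +/+ samples and at 161, 165 and 70.3 in the Klf9 f/f samples. Rpl22 (chr4:151699851-151708180, plus strand, mm9) stood at 27.4, 27.3 and 14.9 CPM per kb and at 21.9, 27.3 and 19.4. Rpl22l1 therefore exceeded Rpl22 in all 6 samples, with log2 ratios of 1.86 to 3.19 and a mean of 2.56, or 5.91-fold.

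The size of the Rpl22l1 to Rpl22 ratio depends on which length is used. It was 2.06 on the log2 scale with the longest transcripts and 3.62 with the stretches found once in the genome, since 65.5% of Rpl22l1 and 5.89% of Rpl22 occurred elsewhere. The mean ratio of the Klf9 +/+ samples was 2.68 ± 0.48 (SD, n = 3), and that of the Klf9 f/f samples was 2.45 ± 0.53 (SD, n = 3). The difference was -0.23 with an exact two-sided permutation p of 0.6, where 0.1 is the smallest p that 3 against 3 samples allow. Without Klf9 +/+ replicate 1 the difference was 0.02, and without Klf9 f/f replicate 3 it was 0.06. Between the series it was larger, with a mean of 2.82 ± 0.28 (SD, n = 4) in series 22 and 2.04 in the 2 samples of series 32, where both values lay below the other 4. That series difference changed when a trend of transcript length was removed, and the part of length itself was not tested. The log2 fold changes of series 32 over series 22 were -1.40 for Rpl22l1 and -0.60 for Rpl22. With the transcript length trend over all genes removed from the counts they were -0.15 and -0.46, so the larger drop was then that of Rpl22.

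By exonic length and by longest transcript the other 4 pairs lay closer to equal levels. By the stretches found once in the genome, Rps4y2 over Rps4x, at -4.15, and Rps27l over Rps27, at -7.61, lay further from equal than Rpl22l1 over Rpl22. Rpl7l1, which takes part in ribosome assembly in the nucleolus, stood below Rpl7 in series 22, with a mean log2 ratio of -0.56 ± 0.12 (SD, n = 4), and above it in series 32, with 0.11. Rpl36al, an intronless copy, exceeded the X-linked Rpl36a in all 6 samples, with log2 ratios of 0.46 to 0.64. With the longest transcripts as lengths that mean ratio changed from 0.55 to -0.40, so the order of this pair is not settled. Rps27l, a target of p53, and Rps27 did not differ in a constant direction, with log2 ratios of -0.25 to 0.08. This pair cannot be compared well, because 99.7% of the stretches of Rps27 occurred elsewhere and 17.1% of those of Rps27l. Rps4y2, an autosomal gene on chr6:148303178-148304120 (mm9) in spite of its name, stood below the X-linked Rps4x in all 6 samples, with log2 ratios of -1.20 to -0.74. With the longest transcripts that mean ratio of -0.98 became -1.73.

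**Figure D2:**
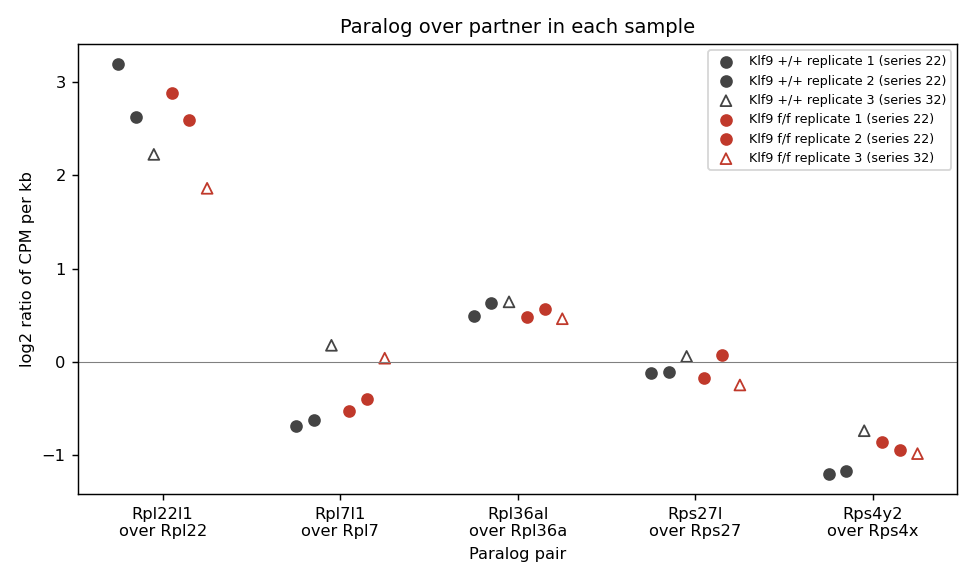
Log2 ratio of each paralog to its partner, both in CPM per kb of exonic length, in each of the 6 samples; circles are series 22, triangles series 32. Rpl22l1 lies between 1.86 and 3.19 above Rpl22 in all samples, with both triangles lowest, and only Rpl7l1 changes side between the series.

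The 5 genes whose log2 CPM followed that of Rpl22l1 most closely over the 6 samples were Gm15266, Tmem14c, Tmbim4, Ddx18 and Acyp2, with Pearson coefficients of 0.997 to 0.999. This likeness was common, since 1116 genes had a coefficient over 0.95, among them 68 of the other ribosomal protein genes. All 6 points are shared with the split between series.

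The ribosomal protein genes differed most between the library series. In series 32 relative to series 22, 79 of 82 genes were lower and 0 higher at 1.2-fold and an adjusted p under 0.05, while 16.6% of all 15056 genes were called lower and 12.9% higher by that rule. At an unadjusted p under 0.05, 80 were lower and 1, Rpl23a, was higher, against 22.4% and 20.7% of all genes, and DESeq2 called 80 lower and 0 higher with adjustment. The median log2 fold change was -0.96, a 1.94-fold lower level, beside a median of 0.03 over all genes tested. Both samples of series 32 lay below all 4 of series 22 for 81 of the 82 genes, against 28.3% of all genes, and above them for 1, against 25.5%. The median member was lower by 1.06 on the log2 scale in Klf9 +/+ and by 0.82 in Klf9 f/f.

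The 6 genes with the largest difference included 2 of the paralogs. Rps24, a small subunit protein mutated in Diamond-Blackfan anaemia, stood at 242, 195, 166 and 210 CPM in series 22 and at 62.6 and 64.8 CPM in series 32. Its log2 fold change was -1.67 ± 0.18 (SE, adjusted p = 0.00232, edgeR). Rpl22l1 stood at 122, 82.2, 78.6 and 80.8 CPM in series 22 and at 34.1 and 34.4 CPM in series 32, a log2 fold change of -1.40 ± 0.20 (SE, adjusted p = 0.00408). In both genes the groups were far apart and the samples of series 32 nearly equal. With the trend of transcript length removed, Rps24 stood at -0.87 (adjusted p = 0.00864, edgeR) and was still called. Rpl22l1 then stood at -0.15 (adjusted p = 0.478, edgeR) and was not.

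Rpl31, a protein near the exit of the tunnel, stood at 136, 87.5, 82.3 and 104 CPM against 39.9 and 41.5 CPM, and changed by -1.32 ± 0.21. Rps27l stood at 188, 145, 112 and 159 CPM against 69.0 and 56.5 CPM, and changed by -1.27 ± 0.19. Rpl39, the smallest of the tunnel proteins, stood at 71.9, 43.5, 41.0 and 49.2 CPM against 20.8 and 21.8 CPM, and changed by -1.26 ± 0.23. Rps27 stood at 86.7, 66.3, 53.7 and 63.9 CPM against 28.0 and 28.4 CPM, and changed by -1.25 ± 0.18, but with the trend of transcript length removed its value was 0.28 (adjusted p = 0.134, edgeR). In all 4 of these genes the CPM of series 32 lay below series 22 without overlap. With the length trend removed, Rpl31 stood at -0.66 (adjusted p = 0.0311, edgeR). Rps27l and Rpl39 then stood at -0.15 and -0.19 (adjusted p = 0.415 and 0.428, edgeR) and were not called. For Rpl31, 39.5% of the exonic bases were shared with Tbc1d8.

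Differences by role were small beside that. The median log2 fold change was -0.98 for the 31 small subunit proteins, -0.93 for the 42 of the large subunit and -1.04 for the 3 stalk proteins. Within the stalk Rplp0 changed by -0.51 ± 0.16 (SE, adjusted p = 0.0412), while Rplp1 and Rplp2 changed by -1.08 ± 0.21 and -1.04 ± 0.21. With the length trend removed Rplp1 stood at 0.16 (adjusted p = 0.407, edgeR), Rplp0 at -0.05 (adjusted p = 0.811) and Rplp2 at -0.32 (adjusted p = 0.183), and none was called. Rps6, Rpsa and Rps27a changed by -0.81 ± 0.15, -0.79 ± 0.17 and -1.12 ± 0.15. Rpl22, the tagged protein, stood at 79.9, 79.5, 63.6 and 79.4 CPM in series 22 and at 43.4 and 56.4 CPM in series 32, a change of -0.60 ± 0.17 (SE, adjusted p = 0.0293). The 13 genes with a TOP-like run at the start had a median of -1.04, and the 48 matched genes without it -0.94.

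The 3 genes not called are named here after their values were seen. Rpl7l1 stood at 192, 199, 184 and 221 CPM in series 22 and at 168 and 161 CPM in series 32, a log2 fold change of -0.27 ± 0.14 (SE, adjusted p = 0.169). Rps2, which lies at the mRNA entry channel, stood at 175, 134, 123 and 148 CPM in series 22 and at 98.8 and 107 CPM in series 32, with a log2 fold change of -0.49 ± 0.17 (SE, adjusted p = 0.0566). Rpl23a stood at 6.46, 4.20, 3.92 and 5.63 CPM in series 22 and at 8.09 and 8.10 CPM in series 32, the reverse of the other genes, with 0.68 ± 0.26 (SE, adjusted p = 0.0780). Its neighbour Tlcd1 did not separate the series in that way, at 70.4, 38.7, 58.6 and 51.4 CPM in series 22 and at 52.5 and 58.3 CPM in series 32.

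**Figure D3:**
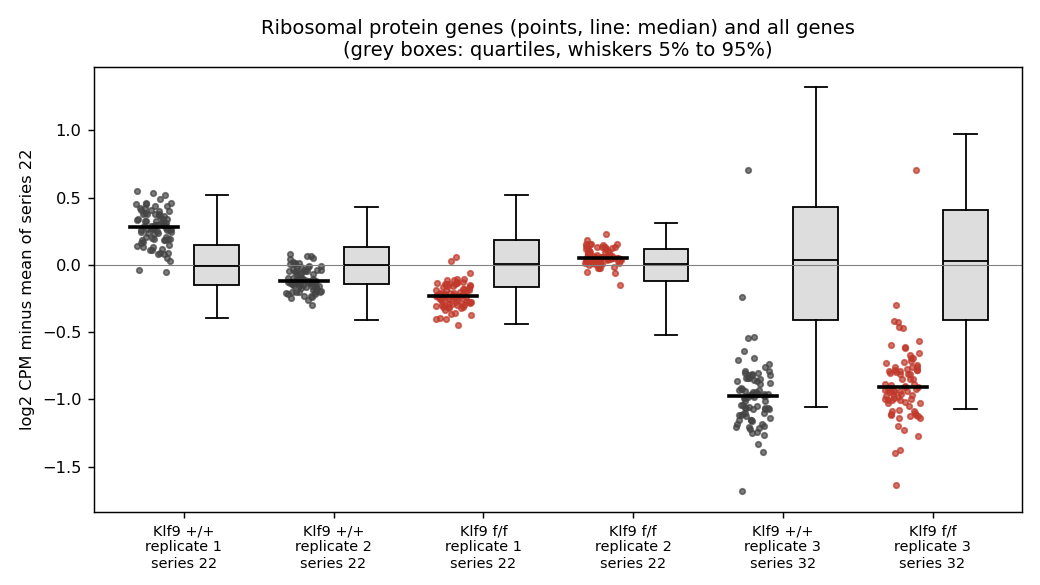
Log2 CPM of each of the 82 genes (points, with the median as a line) and of all 15056 genes (grey boxes for quartiles, whiskers from the 5th to the 95th percentile) in each sample, relative to the mean of series 22. The genes moved as a block, with medians of 0.28, -0.12, -0.23 and 0.05 in series 22 and -0.98 and -0.91 in series 32, while the medians of all genes stayed near 0.

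The genes also moved as a block between samples of 1 series and genotype. Klf9 +/+ replicate 1 exceeded replicate 2 in 81 of 82 genes, with a median difference of 0.39 on the log2 scale, and Klf9 f/f replicate 2 exceeded replicate 1 in 82 of 82, with a median of 0.29. The medians over all genes for these pairs were -0.002 and 0.002. These are differences between single samples, while the genotype difference, with a median log2 fold change of -0.10, compares groups. The 2 sizes are therefore not alike. Between genotypes, the single samples Klf9 +/+ replicate 1 and Klf9 f/f replicate 1 had medians of 0.28 and -0.23 relative to the mean of series 22.

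Transcript length moved with the series difference across all genes. Over the 233 genes whose longest annotated transcript was at most 500 bases, the median log2 fold change of series 32 over series 22 was -1.74. It was -0.94 from 500 to 1000 bases, -0.60 from 1000 to 1500, -0.32 from 1500 to 2000, -0.04 from 2000 to 3000, 0.25 from 3000 to 5000 and 0.31 above 5000. The ribosomal protein genes are short, with a median longest transcript of 944.5 bases against 3046.5 over all genes tested, and 46 of the 82 lie at or under 1000 bases. The 8 members of at most 500 bases had a median of -1.16, nearer to 0 than the -1.74 of all genes of that length. The 38 members of 500 to 1000 bases had a median of -1.01, close to the -0.94 of their class. In the longer classes the members lay lower than all genes, with -0.89 for the 17 of 1000 to 1500 bases against -0.60, and -0.79 for the 7 of 1500 to 2000 against -0.32. The 8 members of 2000 to 3000 bases had a median of -0.80 against -0.04 over all genes. The 3 of 3000 to 5000 bases had -0.82 against 0.25, and the 1 above 5000 had -1.04 against 0.31. These classes rest on the longest annotated transcript, which was 5130 bases in Rps15a, 4999 in Rpl24 and 3706 in Rps20. Which transcripts of a gene were present was not tested, so a member may have been placed in too long a class.

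When the length trend over all genes was removed from the counts, an alternative added after the data were seen, 21 of the 82 genes were called lower in series 32 and 2, Rpl23a and Rpl36, were called higher. The median log2 fold change was then -0.20. Of the 82 values 17 lay above 0, and 15 of these belong to genes called lower without that step. The trend was also taken over the longest annotated transcript, so the 21 calls carry the same limit. The differences within series moved with length in the same way: over genes of 500 to 1000 bases Klf9 +/+ replicate 1 exceeded replicate 2 by a median of 0.32, and Klf9 f/f replicate 2 exceeded replicate 1 by 0.30. The part of read loss to repeated sequence, of choroid plexus RNA and of whatever else set the series apart was not tested. The series call rests on both samples of series 32: without Klf9 +/+ replicate 3, 1 gene (Rps24) was called, and without Klf9 f/f replicate 3, 21 were, with medians of -0.80 and -1.09.

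**Figure D4:**
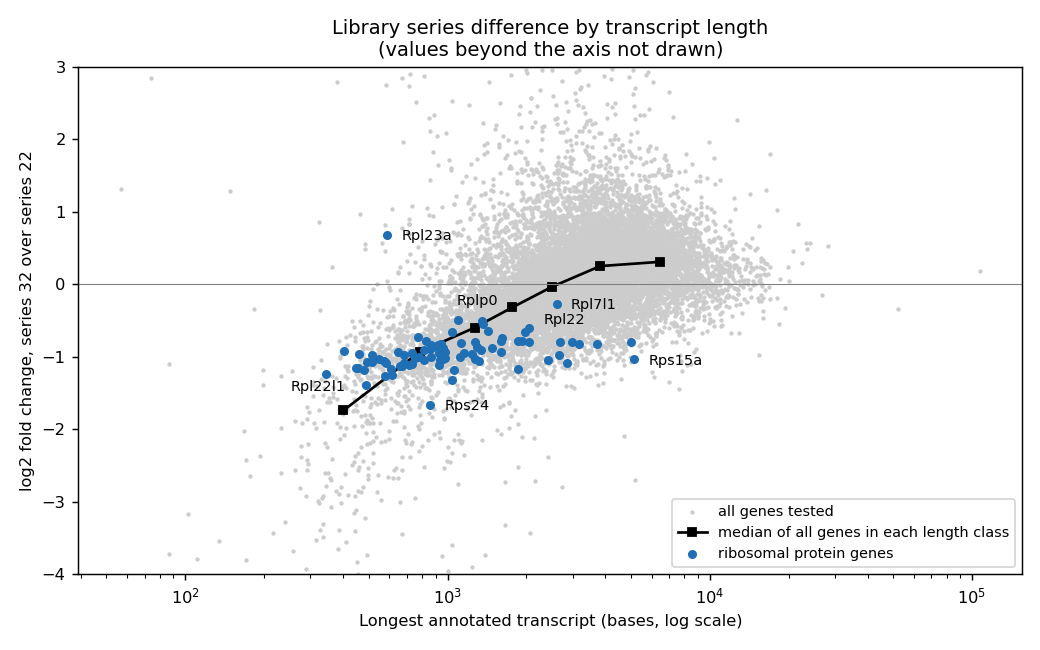
Log2 fold change of series 32 over series 22 against the longest annotated transcript of each gene (log axis), for all genes tested (grey), for the median of 7 length classes (black squares) and for the 82 ribosomal protein genes (blue). The class medians rise from -1.74 to 0.31, and the medians of the blue points lie above the line up to 500 bases, near it from 500 to 1000 bases and below it in every longer class.

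No ribosomal protein gene was called for genotype. In Klf9 f/f against Klf9 +/+, with the library series as a term, 0 of 82 genes were higher and 0 lower at 1.2-fold and an unadjusted p under 0.05, while 1.82% of all genes were called higher and 2.5% lower. No member had an unadjusted p under 0.05 at any size, the smallest being 0.116 (edgeR), and DESeq2 and the likelihood-ratio test called 0 as well. Over all genes, 0 had an adjusted p under 0.05. The log2 fold changes ran from -0.29 to 0.14 with a median of -0.10, and 81 of 82 were smaller than 1.2-fold. With a median SE of 0.16, changes of the size seen here could not be told from none.

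Rps27l had the most negative value, with 188, 145 and 69.0 CPM in the Klf9 +/+ samples and 112, 159 and 56.5 CPM in the Klf9 f/f samples, a log2 fold change of -0.29 ± 0.17 (SE, unadjusted p = 0.116). Rplp0, the base of the stalk, had the most positive, with 322, 242 and 205 CPM against 305, 332 and 216 CPM, and 0.14 ± 0.15 (SE, unadjusted p = 0.363). Both sets of values overlapped between genotypes. Rpl22, on which the pull-down rests, had 0.02 ± 0.16 (SE, unadjusted p = 0.914), and Rpl22l1 had -0.24 ± 0.17 (SE, unadjusted p = 0.198). Rps6 had -0.01 ± 0.14, Rpsa 0.03 ± 0.15 and Rps27a -0.10 ± 0.14, none past the threshold. The 5 paralogs ran from -0.29 to 0.12.

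A common lean was present but rested on single samples. Of the 82 genes, 70 had a value below 0, against 49.8% of all genes. Short genes in general leaned the same way. Up to 500 bases the median was -0.20 over all genes and -0.15 over the members. From 500 to 1000 bases it was -0.09 and -0.10, and in every longer class the members lay lower than all genes. With the length trend removed, the median of the members was -0.03. Without Klf9 +/+ replicate 1 the median became 0.06, without Klf9 f/f replicate 1 it became 0.01, and with any other sample left out it lay between -0.15 and -0.18. Without Klf9 f/f replicate 2, Rps27l alone was called, with -0.45 ± 0.18 (SE, unadjusted p = 0.0340).

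The median difference had another sign in each series. In series 22, the value of Klf9 f/f was below that of Klf9 +/+ in 77 of 82 genes, with a median difference of -0.17 in log2 CPM. The edgeR fit of series 22 alone, with 2 samples against 2, called 0 members higher and 0 lower, with a median log2 fold change of -0.18. In series 32 the value of Klf9 f/f was above in 71 of 82, with a median of 0.08, which has no test because that series holds 1 sample of each genotype. Rpl22 went from -0.17 to 0.38 and Rpsa from -0.13 to 0.37, while Rps27l was -0.30 and -0.29. In no gene were the Klf9 f/f samples all below or all above the Klf9 +/+ samples within both series, against 5.53% and 7.78% of all genes. In series 22 alone, 6 genes were separated downward (Rps27, Rpl22l1, Rpl7, Rpl10, Rpl22 and Rpl27a) and 1 upward (Rps4y2), against 9.77% and 13.5% of all genes.

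The interaction of genotype and series was tested across all genes. No member passed an unadjusted p under 0.05, against 1.53% of all genes, and DESeq2 also called 0. The member values were positive in 78 of 82 genes, with a median of 0.28 on the log2 scale and a median SE of 0.39, beside 53.6% positive over all genes. Rpl22 had 0.53 ± 0.36 (SE, unadjusted p = 0.163), the smallest p of the members. Without Klf9 +/+ replicate 1 the median was 0.05.

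**Figure D5:**
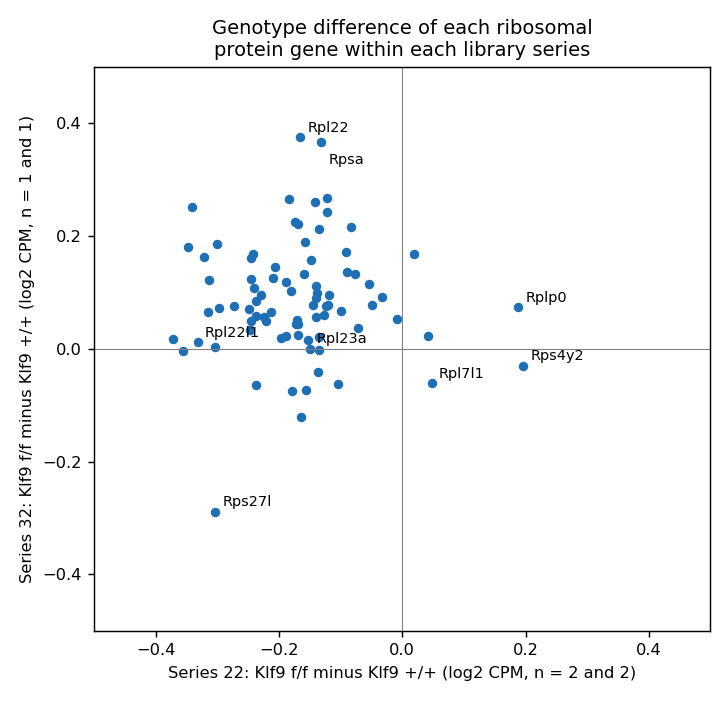
Klf9 f/f minus Klf9 +/+ in log2 CPM for each of the 82 genes, in series 22 (horizontal, 2 samples against 2) and series 32 (vertical, 1 against 1). Most points lie to the left of 0 and above 0, with 77 genes lower in Klf9 f/f in series 22 and 71 higher in series 32.

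Marker lists of cell types were counted by the same rule for genotype, 1.2-fold and an unadjusted p under 0.05, which called 1.82% of all genes higher and 2.5% lower. With adjustment 0 genes were called. All 15 choroid plexus markers were called lower in Klf9 f/f, with summed levels of 277 to 4220 CPM in Klf9 +/+ and 116 to 796 CPM in Klf9 f/f. Of 12 endothelial markers 3 were called lower, with sums of 169 to 418 CPM and 67.3 to 270.3 CPM and none at 0 counts. Of 12 astrocyte markers 5 were called higher, with sums of 12101 to 15108 CPM and 15051 to 18741 CPM. Of 11 radial glia markers 1 was called higher and 0 lower, with sums of 2213 to 3926 CPM and 2827 to 3636 CPM. None of 10 granule neuron and 9 microglia markers was called, and of 9 oligodendrocyte markers 1 was called higher and 1 lower. Their part in the small differences of the ribosomal protein genes was not tested.

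Other genes of the translation machinery were counted in the same way. None of the 3 ribosomal proteins outside the symbol rule, the 19 other TOP messages, the 30 ribosome biogenesis genes, the 16 genes of mTOR and Myc control or the 76 mitochondrial ribosomal proteins was called for genotype in either direction, with medians of 0.01, -0.02, 0.05, 0.005 and -0.04. For the library series, 14 of the 19 other TOP messages were called lower and 0 higher, with a median of -0.74 and a median longest transcript of 2484 bases. By that rule 16.6% of all genes were called lower and 12.9% higher. Those with the smallest p were Eif3k, an initiation factor subunit, at -1.06 ± 0.15, Tpt1, a growth-linked TOP message, at -0.98 ± 0.16, and Eef1b2, an elongation factor subunit, at -0.95 ± 0.15.

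The counts of this paragraph stand beside 16.6% of all genes called lower and 12.9% called higher. Of the mitochondrial ribosomal proteins, 63 of 76 were called lower in series 32 and 1 higher, with a median of -0.80. Their median longest transcript was 1300.5 bases, and 46.3% of all genes of 1000 to 1500 bases were called lower. Of the ribosome biogenesis genes, 13 of 30 were called lower and 0 higher, with a median of -0.37, led by Npm1, the nucleolar chaperone, at -0.88 ± 0.14, and by Nop10 and Nhp2, proteins of box H/ACA particles, at -0.98 ± 0.19 and -0.90 ± 0.18. The median of the mTOR and Myc genes was -0.02, and 1 of the 16 was called lower (Rheb, the activator of mTOR, -0.80 ± 0.14) and 4 higher, led by Max, the partner of Myc, at 1.69 ± 0.25, and Mlst8, a subunit of mTOR complexes, at 0.76 ± 0.13. Of the ribosomal proteins outside the symbol rule, Fau, which encodes Rps30, changed by -1.17 ± 0.19 and Gnb2l1, which encodes Rack1, by -0.76 ± 0.16.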

How the data were processed

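Ribosome-bound mRNA was sequenced from 6 samples, 3 of each genotype. By the study's methods and the labels, the authors aligned the reads with STAR to mm9, ran HTSeq in its unstranded mode to count reads per gene, and deposited these raw whole-number counts. Reads aligned to several places or to overlapping genes were not counted. The annotation version is not given in the sources used here, and GENCODE M1 (mm9) supplied names, lengths and coordinates; 415 genes had no name in it. 5 summary lines per file were left out of the tests, and the mitochondrially encoded genes held 0 counts.

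The 15056 genes that exceeded 1 CPM somewhere were scaled by TMM and tested with the quasi-likelihood test of edgeR 4.0.16 (R 4.3.3) with terms for library series and genotype, over all genes, with Benjamini-Hochberg adjustment. Calls needed 1.2-fold and, after the study's methods, an unadjusted p under 0.05 for genotype and interaction, or an adjusted p under 0.05 for the series. The SE is the fold change divided by the square root of F. CPM use the TMM-scaled totals, and log2 CPM a prior count of 2. A search of all 50-base stretches counted exact matches on both strands of mm9. Intervals cover counting error only. On simulated genotype data with 192 of 14559 genes changed by 1 on the log2 scale, 70.3% were recovered with adjustment and 98.4% without; 5 unchanged genes were also called with adjustment and 687 without.

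The samples were grouped by the genotype in their labels, and the series read from the library names. The members and lists were chosen with earlier results of these data known. The genes named are the paralog pairs, called members, the 6 largest series differences in each direction, the 4 highest and lowest levels, 6 by role, Klf9, up to 3 called genes of each other list and the 5 most like Rpl22l1, except 2 genes that are not reported here. Alternatives were DESeq2 1.42.0, other scalings, filters and terms, series 22 alone, a test against 1.2-fold, each sample left out in turn, other lengths, and removal of a length trend.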

Additional observations from a re-analysis of the deposited data

Results flagged for a closer look

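The pseudogene Rps2-ps13, which lies outside the 82 genes on chrX:50251765-50252646 (mm9, plus strand), was picked out because it carried reads in Klf9 f/f samples above its level in the Klf9 +/+ controls. Its counts were 3, 2 and 2 in the Klf9 +/+ samples and 425, 425 and 1 in the Klf9 f/f samples. In CPM that is 0.0606, 0.0347 and 0.0653 against 6.48, 8.54 and 0.0445, so the signal was present in both Klf9 f/f samples of series 22 and not in that of series 32. Its adjusted p for genotype was 0.154 (edgeR). It was chosen after its values were seen, and what sets the samples apart was not tested.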

How the results depend on the processing

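No paired analysis was possible because within series 22 nothing links replicate 1 or 2 of one genotype to that number of the other, and replicate 3 marks only the shared series 32, which is a term of the fit. For genotype, 0 members were called under every alternative except without Klf9 f/f replicate 2; with 1 sample left out the counts ranged from 0 to 1 lower, and the median from -0.18 to 0.06. For the interaction the counts ranged from 0 to 1 (Rpl37a) and the median from 0.047 to 0.45. For the series, with 1 sample left out, 1 to 80 members were called lower, the lone sample of series 32 being assumed to vary like the rest. Upper-quartile scaling, DESeq2, other filters, a fit without a genotype term and a test against 1.2-fold gave 74 to 80. Without a filter, 80 were called lower and 1, Rpl23a, higher. With the length trend removed, 21 were lower and 2 higher with a median of -0.20, and 16 members went from below 0 to above 0, of which 15 had been called lower. Among the 16 were Rps27, Rplp1, Rps19bp1, Rpl37a, Rpl36 and Rpl32, with 0.28, 0.16, 0.034, 0.023, 0.49 and 0.23, and Rps2, with 0.13, which had not been called; of the 16, Rpl36 alone passed the threshold.

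Over all genes, calls for genotype were 650, against 1439 without a filter, 213 without the series term, 365 in series 22 alone and 388 against 1.2-fold. Calls for the series were 4444, against 1925 with the length trend removed and 2790 against 1.2-fold. Calls for the interaction were 231, against 607 without a filter.

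Mean log2 ratios of the paralog pairs moved with the length used. By exonic length, longest transcript and stretches found once they were 2.56, 2.06 and 3.62 for Rpl22l1 over Rpl22, -0.34, -1.09 and -1.62 for Rpl7l1 over Rpl7, 0.55, -0.40 and -0.98 for Rpl36al over Rpl36a, -0.09, 0.42 and -7.61 for Rps27l over Rps27, and -0.98, -1.73 and -4.15 for Rps4y2 over Rps4x. The share of genes with a TOP-like run was 21.3% at the start and 47.5% within 5 bases. Leaving out mitochondrially encoded genes gave no other share of counts, because they held 0. Counts per sample of at least 21594714 leave counting error small beside the spread between samples.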

Other observations

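Of 152 genes named as ribosomal protein pseudogenes, 23 passed the filter, with summed levels of 49.0 to 76.1 CPM in series 22 and 16.4 to 18.1 CPM in series 32. For the series, 17 of them were called lower in series 32 and 0 higher, at a median of -1.76 on the log2 scale. Over all genes 16.6% were called lower and 12.9% higher. The median longest transcript of these pseudogenes was 541 bases, and 63.1% of all genes of 500 to 1000 bases were called lower. For genotype, 1 was called higher (Rps2-ps13) and 1 lower (Rps13-ps1), beside 1.82% and 2.5% of all genes, and 0 had an adjusted p under 0.05. Rps13-ps1 (chr8:89571619-89572074, plus strand, mm9), named after its values were seen, had counts of 655, 452 and 7 in the Klf9 +/+ samples and 16, 10 and 5 in the Klf9 f/f samples, with an adjusted p of 0.321. In both pseudogenes the sample of series 32 that shared the genotype of the high samples was low.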
